A study of Mus musculus with 31 samples.

Results

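The genes described here encode the enzymes that place and remove methyl groups on histone lysines, together with the relatives that share their domains. They were taken as every row of the deposited array table whose single gene symbol belongs to the Kdm, Kmt2, Setd, Setdb, Prdm, Ehmt, Suv39h, Nsd, Smyd or Dot1l families, 63 rows that stand for 57 of 19938 genes. For the 6 genes with more than 1 row (Kdm7a, Kmt2d, Prdm2, Setd1b, Setd2 and Setd3) the row with the highest mean over the arrays was used. Across the arrays the other row correlated with the used row at r = 0.973 for Kdm7a and 0.911 for Setd2. For Setd3, Setd1b, Kmt2d and Prdm2 the values were lower (0.583, 0.541, 0.297 and 0.174), so their results describe the used row. They comprise 25 methyltransferases of named histone residues, 18 demethylases, 6 SET-domain proteins with other or unsettled substrates and 8 PRDM proteins known mainly as transcription factors. The symbol rule itself uses no measured value, but it was chosen with earlier results of these data known.

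The study followed mouse embryonic fibroblasts (MEFs) through the early days of reprogramming towards induced pluripotent stem cells, on 31 single-colour Affymetrix arrays. The 4F cells carried retroviruses with Oct4, Sox2, Klf4 and c-Myc, the 3F cells lacked the c-Myc virus, and control cells carried a GFP virus instead. All were cultured in DMEM with fetal bovine serum. Biological replicates, as the labels call them, gave 2 arrays per group for uninfected MEFs (day 0), GFP cells (days 1, 3, 5 and 8) and 4F cells (days 1, 2, 3, 4, 5, 6 and 8). The remaining groups are single arrays: GFP cells on day 12, 4F cells on days 10 and 12, and all 3F cells (days 3, 5, 8 and 12). The strain, age and sex of the embryos and the share of cells that took up virus are not given in the sources used here. One label of the 3F samples speaks of 4 factors while listing Oct4, Sox2 and Klf4 alone, so every 3F value rests on the titles, which say 3F. Since each array measured a whole culture, fewer cells of a type and less RNA per cell cannot be told apart in any value below.

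Values are log2 signals as deposited, from 4.27 to 14.3, and the number of arrays limits their precision. The Pou5f1 (Oct4) signal lay between 6.05 and 10.2 on the 4F and 3F arrays and between 5.22 and 5.6 on the GFP arrays. Sox2 lay between 5.74 and 9.48 with 4F, 5.86 and 9.2 with 3F and 5.31 and 5.57 with GFP. Its lowest 4F and 3F arrays lay within the day 0 range of 5.66 to 5.98. The Klf4 and Myc signals were not higher with 4F (Klf4 6.65 to 7.61 against 7.67 to 8.15 with GFP, Myc 6.37 to 8.5 against 6.58 to 9.72). The sources used here do not give whether those probes lie within the delivered sequences, so they do not check the labels. Of 12 fibroblast markers 11 stood at or above the 89.6th percentile of genes on day 0, and Lum at the 38.0th. All 10 germ cell markers stayed under 6 as arm means in every arm.

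Methylation of histone H3 on lysine 4 (H3K4) marks active promoters and enhancers and methylation on lysine 36 marks transcribed gene bodies, whereas methylation on lysine 9 or lysine 27 marks silent chromatin. Methyltransferases, most of them with a catalytic SET domain, write these marks, and demethylases of the Jumonji (Kdm2 to Kdm8) and flavin-dependent (Kdm1) families erase them. In reprogramming, H3K9 methylation is known as a barrier to the activation of silent pluripotency genes, which is why its writers and erasers have drawn attention in fibroblasts.

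The results below turn on demethylases whose signal was higher with 4F and on a methyltransferase whose signal fell with GFP. The promoters of 3 of them are shown because they differ in the motifs they hold. The sequences are the 250 bases before the gene start in RefSeq on build GRCm38.p6, 5′ to 3′ on the gene's strand, at chr6:71632918-71633167 (minus strand, the first of 3 starts) for Kdm3a, chrX:18162325-18162574 (plus strand) for Kdm6a and chr2:3474987-3475236 (minus strand) for Suv39h2. Capitals mark the E-box CACGTG, the core that Myc proteins bind, and the CCAAT box, read on either strand.
Kdm3a: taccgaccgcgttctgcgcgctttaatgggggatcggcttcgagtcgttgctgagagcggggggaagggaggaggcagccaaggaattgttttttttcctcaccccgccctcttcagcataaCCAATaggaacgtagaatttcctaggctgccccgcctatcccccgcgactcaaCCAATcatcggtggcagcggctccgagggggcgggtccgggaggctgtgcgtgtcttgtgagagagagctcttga
Kdm6a: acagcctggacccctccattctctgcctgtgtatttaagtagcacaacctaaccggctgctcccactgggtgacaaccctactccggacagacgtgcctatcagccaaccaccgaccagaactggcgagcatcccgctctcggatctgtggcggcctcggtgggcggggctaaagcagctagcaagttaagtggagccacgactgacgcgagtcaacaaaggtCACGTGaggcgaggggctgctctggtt
Suv39h2: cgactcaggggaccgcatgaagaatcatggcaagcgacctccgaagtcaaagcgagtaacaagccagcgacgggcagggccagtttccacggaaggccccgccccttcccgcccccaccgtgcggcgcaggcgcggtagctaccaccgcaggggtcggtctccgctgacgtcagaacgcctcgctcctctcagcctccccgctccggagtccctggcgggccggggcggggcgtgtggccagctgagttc
Kdm3a holds 2 CCAAT boxes and Kdm6a 1 E-box, and neither motif nor the E2F-type motif TTTCCCGC occurs in the Suv39h2 window. The windows of Kdm7a, Setd6 and Smyd2, which are not shown, hold none of the 3 motifs either. Among the 42 genes with a window, 20 hold a CCAAT box (47.6%) against 34.5% of 27025 mouse promoters, 2 hold the E-box (4.8%, Kdm6a and Ehmt2) against 6.0%, and 0 hold TTTCCCGC against 0.9%. No matches overlap in the windows shown, and a match is a description of letters, not of binding.

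Against GFP on the same day, more of these genes were called higher with 4F than lower on each of the 4 days. In either direction 3 were called on day 1 (5.26%) and 17 on day 8 (29.8%). The shares of all genes called, given below, rose between these days as well. A gene is called here where limma's Benjamini-Hochberg adjusted p over all 19938 genes is under 0.05. On day 1, 2 were higher (Kdm7a and Setd6) and 1 was lower (Kdm5b), against 1.42% of all genes called higher and 0.391% lower. On day 3, 11 were higher and 0 lower, against 6.28% and 5.65% of all genes. On day 5, 8 were higher and 2 lower, against 10.5% and 10.9%. On day 8, 16 were higher and 1 lower (Nsd3), against 14.5% and 13.0%. The median difference of the 57 genes was 0.24 on day 8, where that of all genes was -0.03. Over the mean of the 4 days, 22 were higher and 4 lower, against 18.8% and 18.7% of all genes. Leaving out 1 array moved the day 1 count to between 0 and 1 and the day 3 count to between 4 and 8. The day 3 count was 4 without 4F replicate 1 or without GFP replicate 1 of that day, and 17 with the replicate set as a block. Without each array in turn, 0 of the 3 calls of day 1 held, 3 of 11 on day 3 (Kdm7a, Kdm3a and Kdm6a), 6 of 10 on day 5 and 11 of 17 on day 8. Each such fit leaves 1 array in a group, so a lost call need not mean a changed difference. Among the lost calls the difference moved little for Setd6 on day 1 (0.52 to 0.59) and more for Kmt2e on day 3 (0.44 to 1.1).

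**Figure D1:**
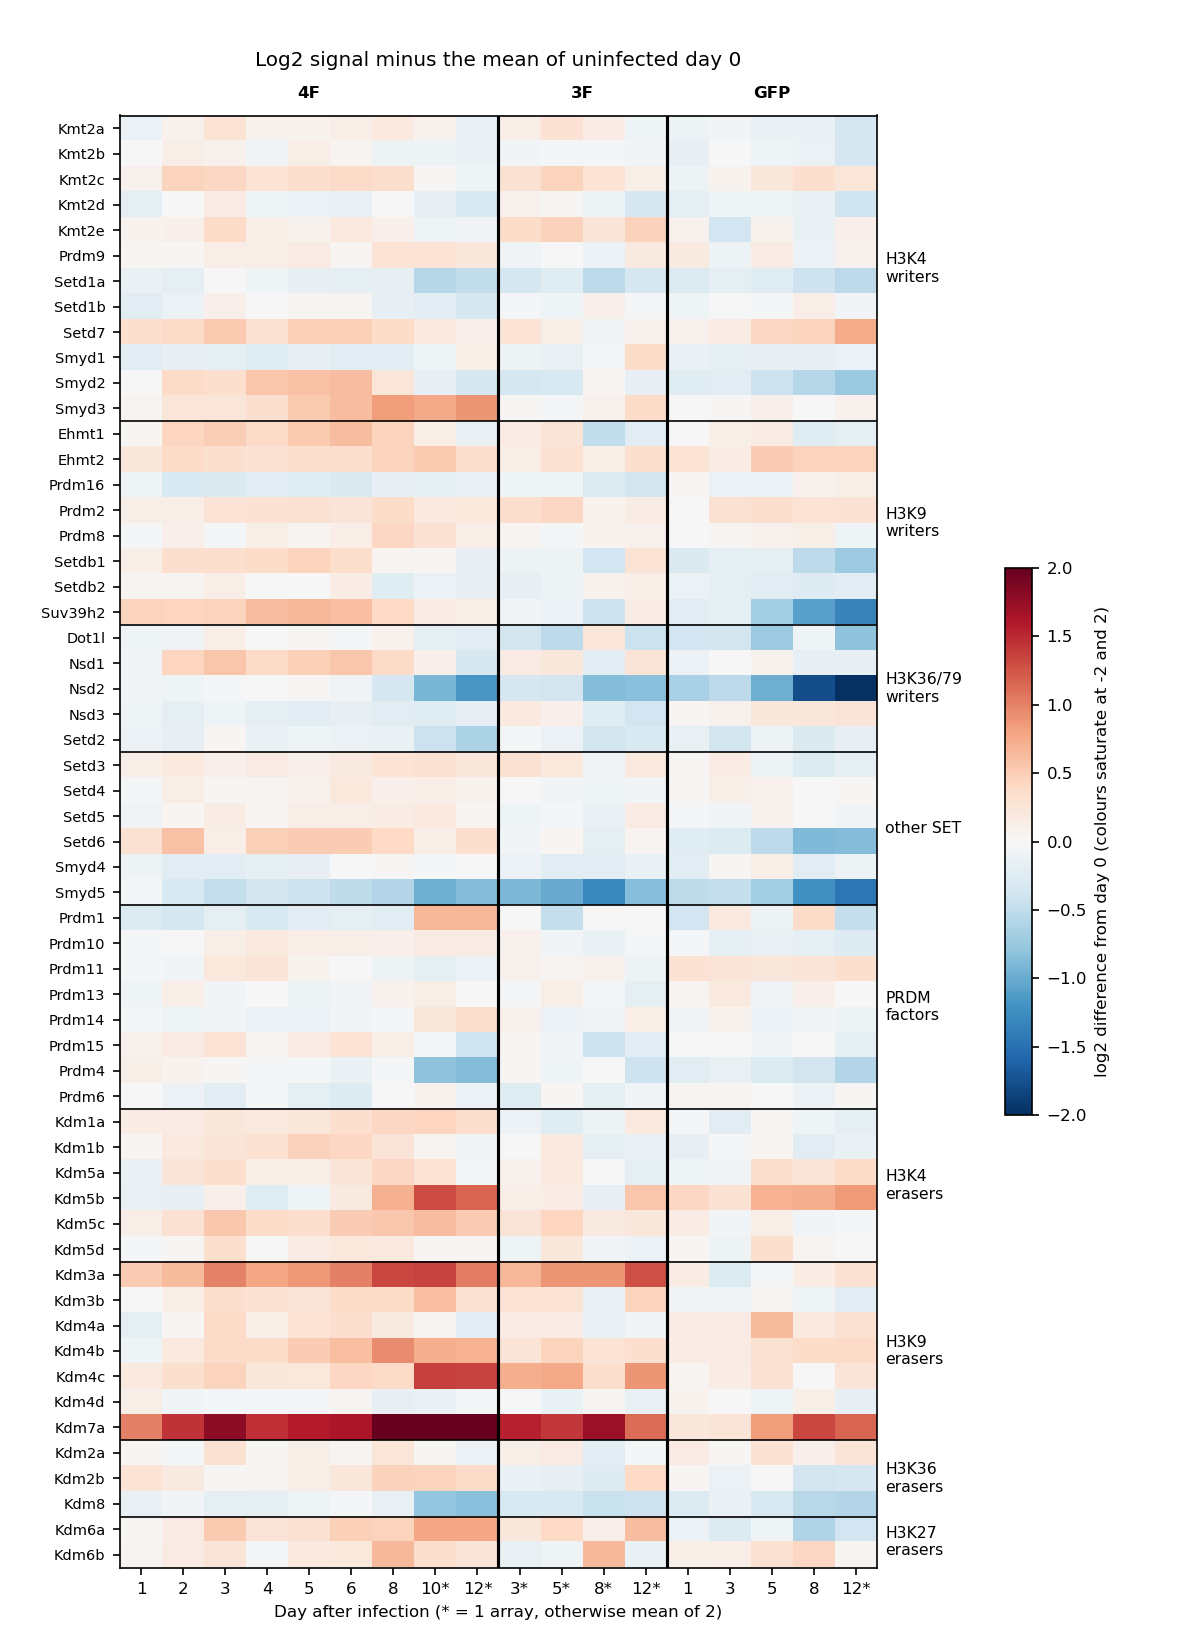
Log2 signal of each gene minus the mean of the 2 uninfected day 0 arrays, by arm and day (columns) and by class (rows). An asterisk marks days with 1 array, and Kdm7a, Kdm3a and the late Kdm4c columns with 4F are the darkest red while Nsd2 with GFP is the darkest blue.

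By the test of the change itself, the difference between 4F and GFP was larger on day 8 than on day 1 for 4 genes (Kdm6a, Smyd3, Setd6 and Prdm9) and moved downwards for 1 (Nsd3), against 3.92% and 4.57% of all genes. In either direction these 5 are 8.77% of the 57 genes, near the share of all genes. This count was 2 without 4F day 1 replicate 2 or without GFP day 1 replicate 1, and 10 instead of 5 with the replicate set as a block.

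The comparison with day 0 separates genes that rose with 4F from genes that fell with GFP, although both differences share the same 2 day 0 arrays. With 4F on day 1, 1 gene was higher (Kdm7a) and 0 lower, against 0.512% and 0.326% of all genes. On day 3, 5 were higher (Kdm7a, Kdm3a, Kdm5c, Setd7 and Kdm6a) and 1 lower (Smyd5), against 4.6% and 3.93%. On day 5, 9 were higher and 2 lower (Smyd5 and Nsd3), against 6.47% and 7.08%. With GFP, limma called 0 of the 57 genes on day 1, where 4 passed an unadjusted p of 0.05 and 0.0401% and 0.0502% of all genes were called higher and lower. It called 0 on day 3 too, where 6 passed unadjusted and 0.727% and 0.326% of all genes were called. On day 5 with GFP, 5 genes were higher and 4 lower, against 5.74% and 4.83%. Without day 0 replicate 1, 1 gene was called with 4F on day 3, 3 with 4F on day 5 and 2 with GFP on day 5. Without 4F day 5 replicate 1, 2 were called with 4F on that day. With the replicate set as a block 18 were called with 4F on day 5.

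With 4F on day 8, 14 genes were higher and 2 lower than on day 0, against 7.39% and 8.51% of all genes. Of the 18 demethylases 8 were higher and 0 lower, with a median difference of 0.42. Of the 25 methyltransferases 5 were higher and 1 was lower, with a median of 0.09, and the median of all genes was 0. With GFP on day 8, 5 genes were higher and 8 lower, against 8.92% and 11.2% of all genes. Among them 2 demethylases were higher and 2 lower, 3 methyltransferases were higher and 4 lower, and 2 of the 6 other SET proteins were lower. The difference between demethylases and methyltransferases was not tested. Without day 0 replicate 1 the number of genes called with 4F on day 8 was 6, and it was 9 without day 0 replicate 2 and 10 without 4F day 8 replicate 1. The calls that held without each array in turn were those of Kdm7a, Kdm3a, Kdm5b, Smyd3 and Smyd5, 5 of 16, among them 3 of the 8 demethylases.

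**Figure D2:**
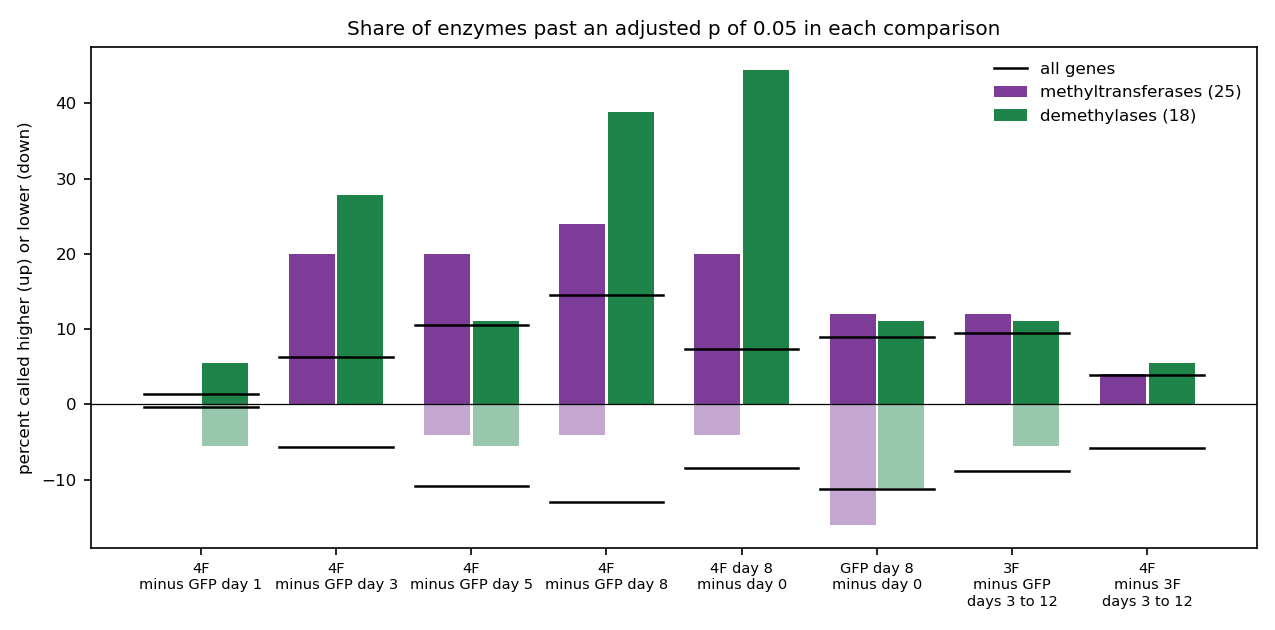
Percent of the 25 methyltransferases and 18 demethylases called higher (bars above 0) or lower (paler bars below 0) by limma in each comparison, with the percent of all genes as black lines. The demethylase bar for 4F on day 8 against day 0 stands for 8 of 18 genes, beside 7.39% of all genes.

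Among the H3K9 demethylases, Kdm7a, a Jumonji enzyme for H3K9 and H3K27, had the largest rise with 4F. Its log2 signal was 6.35 and 6.33 on day 0, 7.41 and 7.27 with 4F on day 1, 8.21 and 8.04 on day 3, 8.16 and 7.69 on day 5 and 8.57 and 8.36 on day 8. With GFP it was 6.72 and 6.43 on day 1, 6.59 and 6.6 on day 3, 7.04 and 7.29 on day 5 and 7.55 and 7.8 on day 8. Every 4F array stood above both GFP arrays of its day, and the GFP arrays of days 5 and 8 stood above day 0 too. Against day 0 the rise with 4F was 1.00 ± 0.18 on day 1 (SE, limma adjusted p = 0.016) and 2.13 ± 0.18 on day 8, 4.37-fold (adjusted p = 2.2e-06). The day 1 call was lost without any 1 of the 4 arrays, with differences of 0.93 to 1.08. The rise with GFP by day 8 was 1.34 ± 0.18, 2.53-fold (limma adjusted p = 8.3e-05). The 4F level exceeded the GFP level by 1.53 ± 0.18 on day 3, 2.90-fold, and by 0.79 ± 0.18 on day 8 (limma adjusted p = 6.4e-05 and 0.0032). Of the daily differences from GFP, those of days 3 and 8 kept their call without each array in turn, that of day 1 (0.77) lost it without any 1 of the 4 (adjusted p up to 0.33), and that of day 5 (0.76) without replicate 1 of 4F or of GFP (adjusted p = 0.11 and 0.067). The second Kdm7a row correlated with it across the 31 arrays at r = 0.973.

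Kdm3a, which removes mono- and dimethyl groups from H3K9, rose over day 0 with 4F, was higher with 3F than with GFP and was not called with GFP against day 0. Its signal was 7.27 and 7.78 on day 0, 8.52 and 8.5 with 4F on day 3, 8.4 and 8.38 on day 5 and 8.65 and 9.06 on day 8. With GFP it was 7.39 and 7.1 on day 3, 7.52 and 7.47 on day 5 and 7.68 and 7.67 on day 8. The single 3F arrays read 8.18, 8.41, 8.4 and 8.81 on days 3, 5, 8 and 12. The 4F and 3F arrays stood above the GFP arrays on each of these days. The difference between 4F and GFP was 1.26 ± 0.20 on day 3 and 1.18 ± 0.20 on day 8 (limma adjusted p = 0.00081 and 0.00038), and the rise over day 0 by day 8 was 1.33 ± 0.20, 2.52-fold (adjusted p = 0.0003).

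Kdm4b, an eraser of H3K9 and H3K36 trimethylation, read 7.26 and 7.22 on day 0 and 8.41 and 7.95 with 4F on day 8, a rise of 0.94 ± 0.23 (limma adjusted p = 0.012). With GFP on day 8 it read 7.87 and 7.33, so the lower 4F array lay just above the higher GFP array and the 2 arms were not called apart on any day. The day 0 difference lost its call without either day 0 array (adjusted p = 0.054 and 0.070) and without 4F day 8 replicate 1 (adjusted p = 0.12). Of the other H3K9 demethylases, Kdm3b was higher with 4F in the mean over days (0.28), Kdm4a rose with GFP on day 5 (0.63, adjusted p up to 0.16 without 1 array), and Kdm4c and Kdm4d were called in no comparison.

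**Figure D3:**
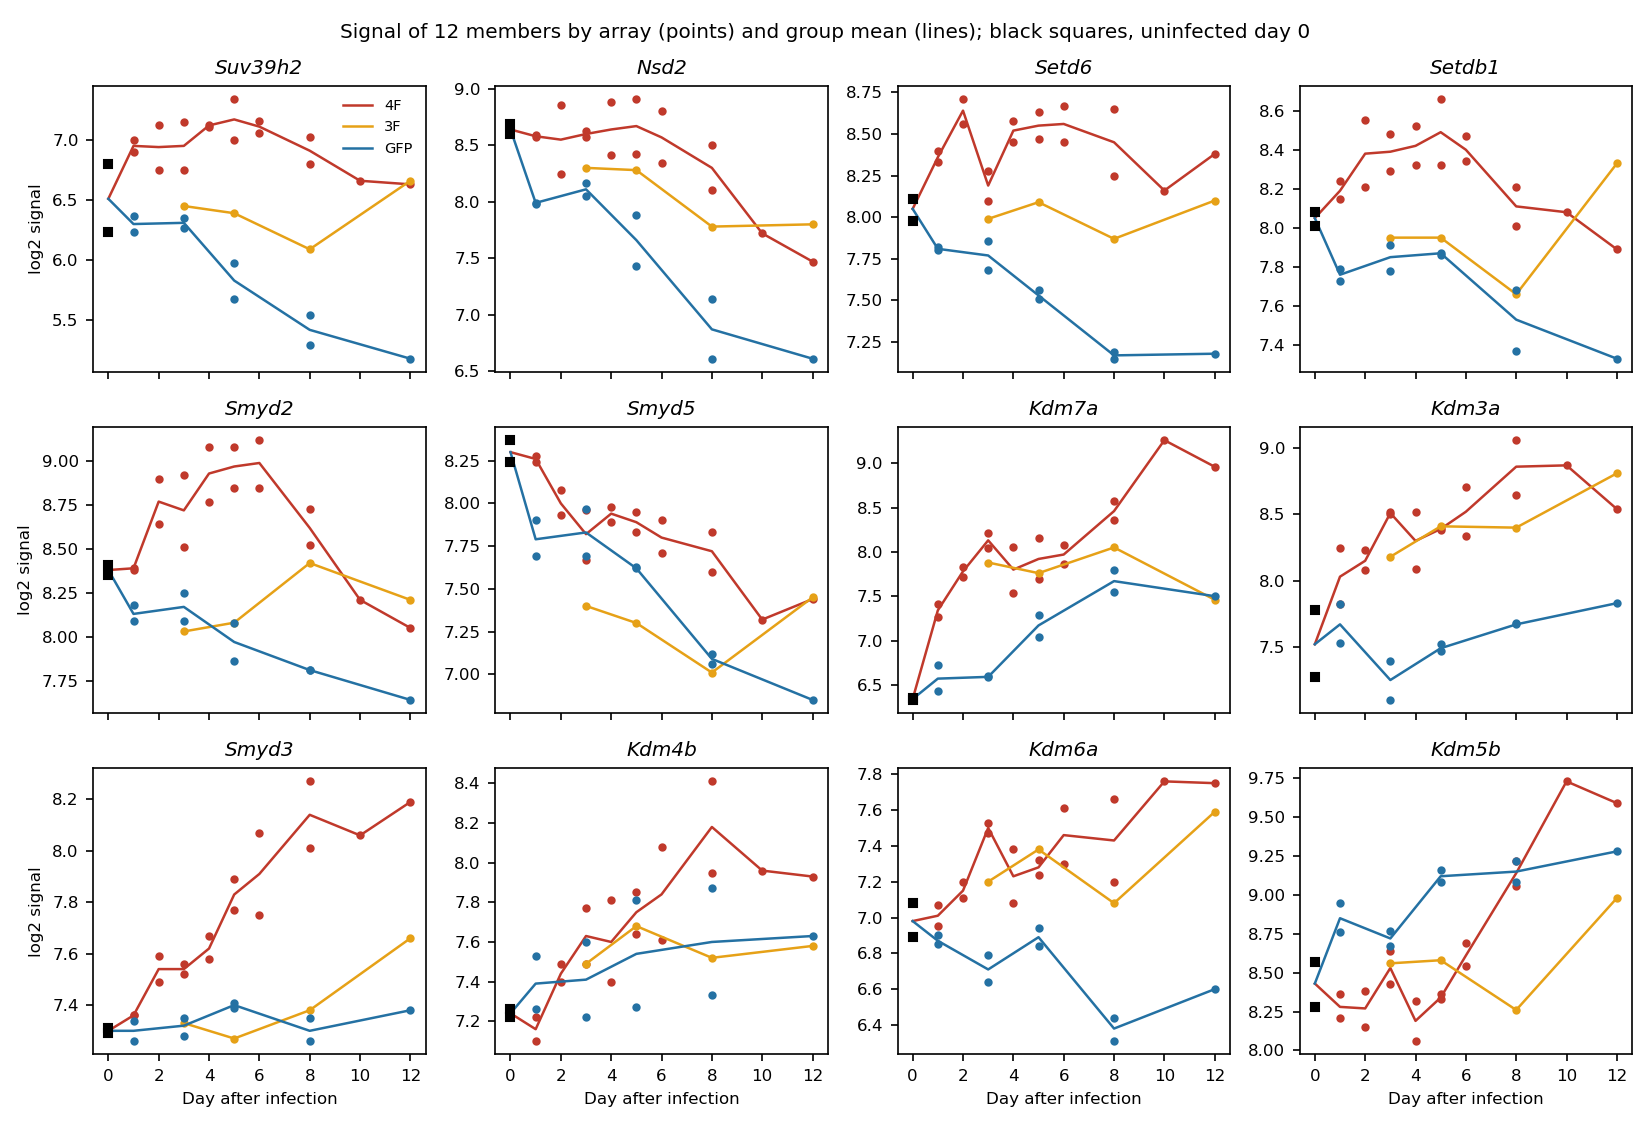
Log2 signal of 12 genes by day, with 1 point per array and lines through the group means for 4F, 3F and GFP (black squares, uninfected day 0). The upper row shows genes whose GFP line lies below day 0 by day 8, and Kdm7a, Kdm3a and Smyd3 have 4F lines above it. Vertical scales differ between panels.

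Of the 6 H3K4 demethylases, Kdm1a, Kdm5b and Kdm5c were higher with 4F on day 8 than on day 0. Kdm1a (LSD1), the flavin-dependent enzyme of the CoREST complex, read 9.09 and 8.99 on day 0, 9.36 and 9.55 with 4F on day 8 and 8.88 and 9.02 with GFP on day 8. Both 4F arrays were above all 4 others, and the difference from GFP was 0.50 ± 0.12, 1.41-fold (limma adjusted p = 0.0064), a call lost without 4F replicate 2 or GFP replicate 1 (adjusted p = 0.065 and 0.062). The day 0 differences of Kdm1a (0.41) and Kdm5c (0.54) lost their calls on leaving out any of 3 arrays each. Kdm5c, an X-linked H3K4 demethylase, was higher than GFP by 0.59 on days 3 and 8, and Kdm1b by 0.49 on day 8. Each of these 3 calls was lost on leaving out either of 2 arrays (adjusted p up to 0.14 and 0.087 for Kdm5c and 0.20 for Kdm1b). Kdm5a and the Y-linked Kdm5d were called in no comparison.

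Kdm5b, a demethylase of H3K4 trimethylation, was the 1 demethylase called lower with 4F than with GFP. It read 8.28 and 8.57 on day 0, 8.21 and 8.36 with 4F on day 1, 8.36 and 8.33 on day 5 and 9.22 and 9.06 on day 8. With GFP it read 8.95 and 8.76, then 9.08 and 9.16, then 9.22 and 9.08 on the same days. The groups were apart on days 1 and 5 and overlapped on day 8. The difference was -0.57 ± 0.13 on day 1 and -0.78 ± 0.13 on day 5 (limma adjusted p = 0.033 and 0.00043), and the day 1 call was lost without either 4F array or GFP replicate 1 (adjusted p up to 0.38). By day 8 both arms had risen over day 0 by 0.72 (adjusted p = 0.0011 with 4F and 0.00074 with GFP). The untested single 4F arrays of days 10 and 12 read 9.73 and 9.59, above the GFP array of day 12, 9.28.

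Kdm6a (UTX), an X-linked H3K27 demethylase, was above day 0 with 4F and below it with GFP by day 8. It read 6.89 and 7.08 on day 0, 7.47 and 7.53 with 4F on day 3 and 7.2 and 7.66 on day 8, against 6.64 and 6.79 with GFP on day 3 and 6.44 and 6.31 on day 8. The arms did not overlap on either day. The rise with 4F by day 8 was 0.44 ± 0.14 and the change with GFP was -0.61 ± 0.14 (limma adjusted p = 0.047 and 0.0058). The rise over day 0 lost its call without either day 0 array or 4F day 8 replicate 2 (adjusted p up to 0.41), and the fall with GFP without day 0 replicate 2 (0.067). The difference between arms was 1.05 ± 0.14 on day 8, 2.07-fold (adjusted p = 4.9e-05), and was larger on day 8 than on day 1 by 0.91 ± 0.20 (adjusted p = 0.010). Its relative Kdm6b was called in no comparison. Among the H3K36 demethylases, Kdm2b was higher with 4F than with GFP on day 8 by 0.81 ± 0.13 (limma adjusted p = 0.00017), Kdm8 fell with GFP by 0.55 (adjusted p up to 0.17 without 1 array) and Kdm2a was called in no comparison.

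The methyltransferases Suv39h2, Nsd2, Setdb1 and Smyd2 fell with GFP by day 8 and were higher with 4F than with GFP. The falls of Setdb1 and Smyd2 lost their calls on leaving out either of 2 arrays (adjusted p up to 0.14 and 0.073). Suv39h2, which trimethylates H3K9 in constitutive heterochromatin, read 6.23 and 6.8 on day 0, 7.34 and 7 with 4F on day 5 and 7.02 and 6.8 on day 8. With GFP it read 5.98 and 5.68 on day 5, 5.29 and 5.54 on day 8 and 5.18 on day 12. The GFP arrays of days 5 and 8 lay below every 4F and day 0 array. The change from day 0 to day 8 was -1.10 ± 0.19 with GFP (limma adjusted p = 0.00065) and the rise with 4F by day 5 was 0.65 ± 0.19 (adjusted p = 0.032), a call lost without day 0 replicate 1 or 4F day 5 replicate 1 (adjusted p = 0.37 and 0.28). The arms differed by 1.49 ± 0.19 on day 8 (adjusted p = 2.9e-05). The GFP arrays of days 5 and 8 lay under 6, the level of the dim-gene filter, and no detection calls were used here, so no fold is given.

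Nsd2, which dimethylates H3K36, read 8.69 and 8.6 on day 0, 8.91 and 8.42 with 4F on day 5 and 8.5 and 8.1 on day 8. With GFP it read 7.88 and 7.43 on day 5 and 6.61 and 7.14 on day 8, below all of these. The change with GFP by day 8 was -1.77 ± 0.25, a 3.41-fold fall (limma adjusted p = 0.00012), and the arms differed by 1.43 ± 0.25 (adjusted p = 0.00041). With 4F the differences from day 0 on days 1, 3, 5 and 8 did not pass the threshold, and the untested single arrays of days 10 and 12 read 7.72 and 7.47.

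Setdb1, an H3K9 methyltransferase known for the silencing of retroviral elements, read 8.01 and 8.08 on day 0, 8.66 and 8.32 with 4F on day 5 and 8.21 and 8.01 on day 8. With GFP it read 7.87 and 7.86 on day 5 and 7.68 and 7.37 on day 8. The arms did not overlap, and differed by 0.62 ± 0.14 on day 5 and 0.58 ± 0.14 on day 8 (limma adjusted p = 0.0045 and 0.0051). The day 5 call was lost without 4F replicate 1 (adjusted p = 0.084) and the day 8 call without 4F replicate 1 or GFP replicate 2 (0.057 and 0.072). Of the other H3K9 methyltransferases, Ehmt2 (G9a) rose over day 0 by 0.45 by day 8 with 4F and with GFP. Its day 0 arrays read 8.66 and 8.91 and its day 8 arrays 9.32 and 9.14 with 4F and 9.38 and 9.08 with GFP. The 4F rise lost its call without day 0 replicate 1 or 4F day 8 replicate 1 (limma adjusted p = 0.28 and 0.22), and the GFP rise without day 0 replicate 1 or GFP day 8 replicate 1 (limma adjusted p = 0.25 and 0.31).

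**Figure D4:**
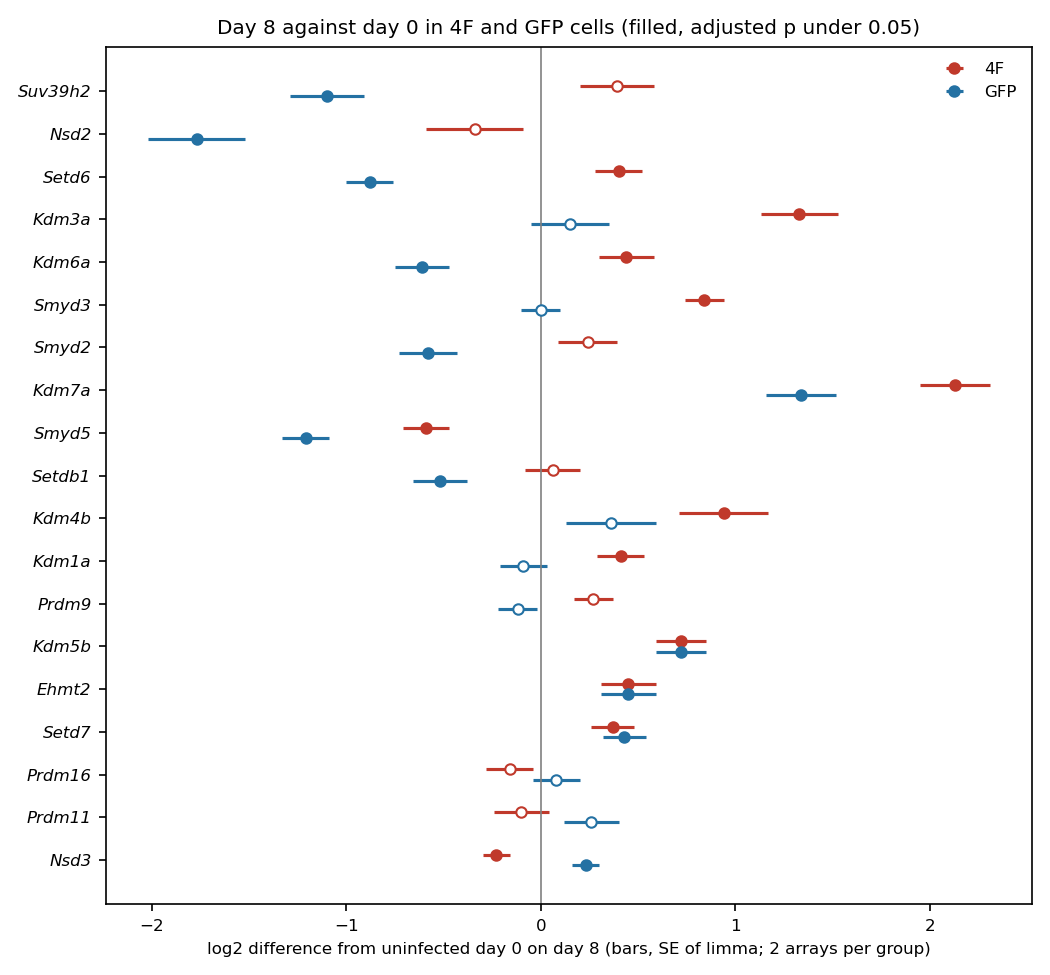
Log2 difference of day 8 from uninfected day 0 for 19 genes with 4F (red) and GFP (blue), with bars of 1 SE from limma and filled points where the adjusted p is under 0.05. Suv39h2, Nsd2 and Setd6 at the top lie furthest apart between the arms, and Kdm5b, Ehmt2 and Setd7 have nearly the same difference in both.

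The SMYD proteins, SET enzymes with a MYND zinc finger, followed different courses. Smyd3 read 7.29 and 7.31 on day 0, 7.36 and 7.36 with 4F on day 1, 7.89 and 7.77 on day 5 and 8.27 and 8.01 on day 8. With GFP all 9 arrays lay between 7.26 and 7.41. The rise over day 0 was 0.84 ± 0.10 by day 8, 1.79-fold (limma adjusted p = 5e-05), and the difference from GFP was larger on day 8 than on day 1 by 0.77 ± 0.14 (adjusted p = 0.0037). Smyd2, also a methyltransferase of p53, read 8.35 and 8.41 on day 0, 9.08 and 8.85 with 4F on day 5 and 8.73 and 8.52 on day 8. With GFP it read 8.08 and 7.86, then 7.81 and 7.81, and the arms differed by 0.99 ± 0.15 on day 5 and 0.82 ± 0.15 on day 8 (limma adjusted p = 0.00023 and 0.00064). Smyd5 fell in both arms, from 8.24 and 8.37 on day 0 to 7.6 and 7.83 with 4F and to 7.12 and 7.06 with GFP on day 8. Those falls were -0.59 ± 0.12 and -1.21 ± 0.12 (limma adjusted p = 0.0037 and 9.1e-06), and the arms differed by 0.63 ± 0.12 (adjusted p = 0.0011). Smyd1 and Smyd4 were called in no comparison.

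Setd6, a SET protein known to methylate the NF-kB subunit RelA, was called higher with 4F on each of the 4 days, though only the later calls held without each array. It read 8.11 and 7.98 on day 0, 8.4 and 8.33 with 4F on day 1 and 8.65 and 8.25 on day 8, against 7.82 and 7.8 with GFP on day 1 and 7.19 and 7.15 on day 8. No 4F array overlapped the GFP arrays of its day. The difference was 0.56 ± 0.12 on day 1 and 1.28 ± 0.12 on day 8, 2.43-fold (limma adjusted p = 0.032 and 2.2e-06). The calls of days 5 and 8 held without each array in turn. That of day 1 was lost without any 1 of the 4, with differences of 0.52 to 0.59. That of day 3 was lost without either 4F array or GFP replicate 1, and its difference ranged from 0.33 to 0.51. Setd7, an H3K4 monomethyltransferase, rose over day 0 by 0.37 ± 0.11 with 4F and 0.43 ± 0.11 with GFP by day 8 (limma adjusted p = 0.039 and 0.013). Its arrays read 7.09 and 7.31 on day 0, 7.65 and 7.5 with 4F and 7.63 and 7.64 with GFP, so the arms overlapped. Setd7 lost its 4F call without day 0 replicate 1 or 4F day 8 replicate 1 (adjusted p = 0.30 and 0.23) and its GFP call without day 0 replicate 1 (adjusted p = 0.15) or without either GFP day 8 array (adjusted p = 0.063 and 0.051).

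Nsd3, a relative of Nsd2, was lower with 4F than with GFP. It read 7.75 and 7.87 on day 0, 7.64 and 7.51 with 4F on day 8 and 8.05 and 8.03 with GFP on day 8. The arms did not overlap, with differences of -0.45 ± 0.07 on day 5 and -0.47 ± 0.07 on day 8, 1.38-fold (limma adjusted p = 0.00036 and 0.00016). Both arms had moved from day 0 by day 8. The change with GFP was 0.23 (limma adjusted p = 0.03), a call lost on leaving out any of 3 arrays. The change with 4F from day 0, -0.23 ± 0.07 (adjusted p = 0.039), lost its call without day 0 replicate 2 (adjusted p = 0.28) or 4F day 8 replicate 2 (adjusted p = 0.25). The large Kmt2a, Kmt2b, Kmt2c and Kmt2d enzymes and Setd1a and Setd1b, the catalytic subunits of the COMPASS-type H3K4 complexes, were called in no comparison, as was Setd2, the writer of H3K36 trimethylation. In all 22 of the 57 genes were called in none.

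The PRDM transcription factors were not called on any single day. Of these 8 genes, Prdm4 and Prdm10 were higher with 4F in the mean over days (0.27 and 0.22) and Prdm11 was lower. The Prdm10 call was lost on leaving out any of 10 arrays, while that of Prdm4 held without each array in turn. Prdm11 lay between 6.12 and 6.65 on the 8 arrays of 4F on days 1, 3, 5 and 8 and between 6.49 and 6.92 on the GFP arrays, which overlap, with a mean difference of -0.22 ± 0.07 (limma adjusted p = 0.018). Prdm16, a regulator of brown fat, was counted here among the H3K9 methyltransferases, as were Prdm2 and Prdm8. In the mean over days Prdm16 differed by -0.17 ± 0.06 (limma adjusted p = 0.035) and lost that call on leaving out any of 10 arrays. Prdm2 and Prdm8 were higher with 4F on day 8 than on day 0, by 0.37 and 0.41 (limma adjusted p = 0.034 and 0.03). Each lost that call on leaving out any of 3 arrays. The meiotic H3K4 methyltransferase Prdm9 lay under 6 on every array, from 5.38 to 5.91, and was 0.39 ± 0.10 higher with 4F than with GFP on day 8 (limma adjusted p = 0.0095), a call lost without 4F replicate 2 or GFP replicate 1 (adjusted p = 0.097 and 0.076). It read 5.73 and 5.91 with 4F and 5.38 and 5.48 with GFP.

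Without c-Myc, 3F was set against GFP with limma in a model that holds arm and day, fitted to days 3, 5, 8 and 12, where the single 3F arrays of the 4 days stand in for replicates. Higher with 3F were 6 genes and lower was 1, against 9.47% and 8.82% of all genes. Higher were Kdm3a (0.90 ± 0.11, adjusted p = 4.7e-05), Nsd2 (0.71 ± 0.18), Suv39h2 (0.67 ± 0.18), Kdm6a (0.64 ± 0.12), Setd6 (0.58 ± 0.13) and Kmt2e (0.50), and lower was Kdm5b (-0.50 ± 0.16, adjusted p = 0.040). The 3F arrays read 7.88, 7.76, 8.05 and 7.46 for Kdm7a on days 3, 5, 8 and 12, where the last lies just below the GFP array of day 12, 7.5, and Kdm7a was not called. Without the 3F day 12 array the calls of Nsd2 (limma adjusted p = 0.070) and Suv39h2 (adjusted p = 0.078) were lost and the count of genes called was 4. It was 11 without the 4F day 12 array. The Kdm5b call was lost on leaving out any of 8 arrays (adjusted p up to 0.22, without 3F day 8) and with a block for the replicate set (-0.58, adjusted p = 0.31) or for the labelling amount, 120 or 300 ng of RNA (-0.47, adjusted p = 0.077). With the latter block 11 genes were called, all of them higher with 3F. Kmt2e lost its call on leaving out any of 6 arrays (adjusted p up to 0.11).

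Between 4F and 3F, 2 genes were called higher with 4F and 0 lower, against 3.87% and 5.77% of all genes, and 14 differed at an unadjusted p under 0.05. The share called higher is near that of all genes. Smyd3 differed by 0.50 ± 0.10 (limma adjusted p = 0.0087), with 3F arrays of 7.33, 7.27, 7.38 and 7.66. Kdm1a differed by 0.38 ± 0.08 (adjusted p = 0.014), with 3F arrays of 8.92, 8.8, 8.94 and 9.23. With the replicate set as a block (replicate 1, replicate 2 or no number, where all 3F arrays carry no number) neither was called, at 0.40 for Smyd3 and 0.10 for Kdm1a (adjusted p = 0.67 and 0.98). With the labelling amount as the block both were, at 0.46 and 0.36 (adjusted p = 0.022 and 0.033). Smyd3 lost its call without the 3F day 5 array (adjusted p = 0.056) and Kdm1a without the 3F array of day 5 or day 8 (adjusted p = 0.092 and 0.073). The number called was 0 without the 3F day 5 array, 1 without that of day 8 and 7 without that of day 12. It was 5 without the 4F day 12 array or 4F day 3 replicate 1, and 4 without the GFP day 12 array or 4F day 3 replicate 2.

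The last 4F arrays, 1 each on days 10 and 12, could not be tested. Both exceeded the day 8 mean by more than 0.5 for Kdm4c and Prdm1, against 4.34% of all genes, and fell short of it by as much for Kdm8, Nsd2 and Prdm4, against 4.36%. Among the 57 genes both shares are near those of all genes. Kdm4c, an eraser of H3K9 trimethylation, read 8.89 and 8.87, where the 14 earlier 4F arrays lay between 7.47 and 8.29 and the GFP day 12 array read 7.77. The late arrays were labelled from 300 ng, while the day 8 mean joins arrays of 120 and 300 ng, 7.51 and 8.29 for Kdm4c. On each earlier day its 300 ng array was the higher 4F array. The 3F arrays, of 300 ng too, read 8.25, 8.27, 7.87 and 8.4 on days 3, 5, 8 and 12. The part of the labelling amount was not tested. Prdm1 (Blimp1), known for the specification of germ cells, read 6.56 on both late 4F arrays, while 1 of the 2 GFP day 8 arrays read 6.92 and the other 5.6. On day 12 the 4F array exceeded the GFP array by more than 1 for 6 genes, against 5.11% of all genes, and lay more than 1 below it for 0, against 5.52%.

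Genes of cell division and of the fibroblast state moved beside these differences. All 15 measured proliferation genes were higher with 4F than with GFP on day 8 (median difference 2.15) and all 15 fell with GFP from day 0 to day 8 (median -1.91), while 1 rose with 4F (median 0.08). Their mean over genes lay between 9.44 and 9.46 on the day 0 arrays, 9.13 and 9.86 with 4F, 8.94 and 9.5 with 3F and 7.16 and 9.07 with GFP. Of 12 fibroblast markers 11 were lower with 4F than with GFP on day 8 (median -2.51), with list means of 9.4 to 10.51 with 4F and 10.58 to 12.33 with GFP, and 0 of the 12 had an arm mean under 6 in these 2 arms. Of 12 pluripotency genes 9 were higher with 4F on day 8 (median 1.62). Of 9 neural markers 4 were higher with 4F than with GFP on day 8, by up to 3.95, with list means of 6.36 to 6.93 with 4F and 5.75 to 6.71 with GFP. Of 10 macrophage markers 1 was higher and 2 were lower on day 8, and 1 was higher and 4 lower in the mean over days. Of 10 skeletal muscle markers 0 were called on day 8 by limma (2 at an unadjusted p under 0.05) and 5 were lower in the mean over days. The lists for endothelium and for germ cells each had 1 gene of 10 called on day 8, above GFP, and limma called 0 of the 10 keratinocyte genes (0 at an unadjusted p under 0.05). The part of dividing cells, of fibroblast genes, of cells on the way to pluripotency and of the other cell types in the results for Suv39h2, Nsd2, Setd6 and the others was not tested.

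Partners and enzymes outside the families were counted too, from a list of 38 measured genes. In the mean over days 21 were higher with 4F than with GFP and 2 lower, with a median difference of 0.30, where 18.8% of all genes were higher and 18.7% lower with a median of -0.03. Of 11 COMPASS and MLL partners 8 were higher, although Kmt2a to Kmt2d themselves were not called. That does not show them unmoved. Of the 12 H3K4 methyltransferases 3 were called in this mean, while 7 passed an unadjusted limma p of 0.05 (median difference 0.16). Furthest above GFP were Dpy30, a shared COMPASS subunit (1.65), Uhrf1, a reader of methylated H3K9 (1.39), and Psip1, a partner of the MLL proteins (1.22). Mecom (-0.55), a PRDM relative, and Rcor3 (-0.23), a CoREST protein, were lower. From day 0 to day 8 Uhrf1 changed by -2.45 with GFP and by 0.21 with 4F (limma adjusted p = 3.4e-06 and 0.65), whereas Dpy30 rose by 1.02 with 4F and changed by -1.23 with GFP (adjusted p = 0.0062 and 0.0012).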

How the data were processed

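Mouse embryonic fibroblasts infected for 4F, 3F or GFP were measured on 31 Affymetrix arrays in 19 groups. Per the labels' protocols, biotin-labelled sense targets came from 120 ng of RNA for the replicate 1 arrays (12) and 300 ng for the others (19). The authors deposited log2 signals, and the sources used here do not say how these were normalized. They were used unchanged. Of 28853 rows, 21789 carry 1 gene symbol and gave 19938 genes, each by its row with the highest mean. Probes of close relatives can share signal, which was not examined.

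All genes were fitted with limma 3.58.1 (R 4.3.3), with a mean for each group. Comparisons with 3F used arm and day as terms on the 18 arrays of days 3, 5, 8 and 12. The threshold was a Benjamini-Hochberg adjusted p under 0.05. The code was tested on simulated data. Replicate numbers were taken as pairing arrays because the labels tie them to a labelling amount. The main fits hold no term for this pairing, so their SEs and calls are unpaired. It entered only in the alternative with the replicate set as a block. Across 66 pairs of groups the replicate differences correlated with r from 0.0808 to 0.686, and 65 exceeded 0.1. The genes, lists and comparisons were chosen with earlier results of these data known.

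Values array by array are given for up to 8 called rises and falls in the mean 4F against GFP comparison, up to 4 in each direction for day 8 against day 0, for 3F against GFP and for 4F against 3F, and every gene whose difference changed between days 1 and 8. Kdm4c and Prdm1 were added after their values were seen. Alternatives were limma-trend, a dim-gene filter, the mean of rows, quantile normalization, the replicate set as a block, the labelling amount as a block (chosen after seeing the data), and leaving out each array. The promoter windows are the first listed per gene.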

Additional observations from a re-analysis of the deposited data

Results flagged for a closer look

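For 5 genes the difference between 4F and GFP itself changed between day 1 and day 8, by limma's test of that change over all genes, which called 3.92% of genes upwards and 4.57% downwards. In either direction the 5 are 8.77% of the 57 genes, near the share of all genes. The change was 0.91 for Kdm6a, 0.77 for Smyd3, 0.72 for Setd6 and 0.53 for Prdm9, and -0.35 for Nsd3 (limma adjusted p = 0.010, 0.0037, 0.016, 0.035 and 0.048). Kdm6a and Smyd3 kept the call on leaving out each array in turn. Setd6 lost it without 4F day 1 replicate 2, 4F day 8 replicate 1 or GFP day 1 replicate 1 (adjusted p = 0.068, 0.059 and 0.053), Prdm9 on leaving out any of 6 of the 8 arrays (up to 0.12) and Nsd3 on leaving out any of 7 (up to 0.16). Prdm9 lay under 6 on every array. No group had more than 2 arrays, so no array could be set apart from its group.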

How the results depend on the processing

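With the replicate set as a replicate block, the genes called numbered 17 for 4F against GFP on day 3 (11 without it), 10 for the change from day 1 to day 8 (5), 18 for 4F on day 5 against day 0 (11) and 0 for 4F against 3F (2, 14 at an unadjusted p under 0.05 without the block). The block holds replicate 1, replicate 2 and the arrays without a number, so in that last fit 3F is compared through day 12 alone. With the labelling amount as the block, an alternative chosen after seeing the data, 11 genes were called for 3F against GFP (7) and 2 for 4F against 3F. With limma-trend they numbered 1 for 4F against GFP on day 1 (3), 7 for 4F on day 5 (11) and 9 for 4F on day 8 against day 0 (16). For 4F against 3F the number was 5 without genes whose mean signal is under 6 and 4 after quantile normalization. The other alternatives that kept all arrays moved no count by over 1.5 times. Leaving out 1 array gave 0 to 1 genes for 4F against GFP on day 1, 4 to 8 on day 3, 6 to 11 on day 5 (6 without 4F replicate 1), 15 to 19 on day 8, 21 to 28 for the mean and 2 to 4 for the change between days 1 and 8. Against day 0 it gave 0 for 4F on day 1, 1 to 6 on day 3, 2 to 9 on day 5 and 6 to 14 on day 8, and for GFP 0 on day 1, 0 to 1 on day 3, 2 to 6 on day 5 and 9 to 11 on day 8. Without day 0 replicate 1 the number was 1 for 4F on day 3, 3 for 4F on day 5 and 2 for GFP on day 5, and without 4F day 5 replicate 1 it was 2 for 4F on day 5. It gave 4 to 11 for 3F against GFP and 0 to 7 for 4F against 3F. Of 38 results for the 19 genes described array by array, 32 kept their call in every alternative that kept all arrays, and 0 reversed. The other 6 were Kdm1a and Smyd3 in 4F against 3F (block), Kdm5b in 3F against GFP (both blocks, and quantile normalization, adjusted p = 0.053), Nsd3 with 4F on day 8 against day 0 (0.052 to 0.19) and between days 1 and 8 (0.11 and 0.22), and Prdm9 between days 1 and 8 (0.057). The cause of these losses was not tested. Groups of 1 or 2 arrays limit every comparison.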
